A study of Homo sapiens with 20 samples.

Results

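The responses of 2 RNA-binding proteins to the same treatment were set against each other, gene by gene and site by site: how the iCLIP signal of hnRNPA1 and that of SRSF1 changed when T7-tagged hnRNPA1 was overexpressed. The quantity of interest was the difference of the responses, the SRSF1 change minus the hnRNPA1 change, each on the log2 scale, which tests the interaction of protein and condition. Genes were taken when a peak was listed in all 10 libraries of the comparison (4 for hnRNPA1, 6 for SRSF1). This held for 1459 of the 14555 genes with a peak in any of the 10 and of the 19362 genes with a peak in any of the 16 iCLIP libraries of the series. Of the 223494 intervals obtained by merging overlapping peaks on a strand, 550 held a peak in all 10 libraries, and these are called sites here.

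The cells were HEK293T TREX-FLP, a human embryonic kidney line with an integration site for tetracycline-inducible genes. Control cells carried hnRNPA1 at its own level (n = 2 libraries for hnRNPA1 and 3 for SRSF1), and overexpressing cells carried inducible T7-hnRNPA1 (again n = 2 and 3). All cells were under tetracycline for 24 h and had 3 days of selection, with blasticidin in both lines, zeocin in control cells and hygromycin in the inducible line. Line and drug therefore change together with hnRNPA1 level and cannot be told apart from it. The labels do not say whether replicates were separate cultures, so p-values measure the spread between these libraries, which may be technical. iCLIP was made from nuclear extracts: RNA is crosslinked to protein by ultraviolet light, the protein is immunoprecipitated and the bound fragments are sequenced. Signal at a gene therefore depends on how much of its RNA is present as well as on binding, and no RNA level per gene was analysed here. Of marker genes, 9 of 17 of the kidney and epithelial list carried any peak in the 10 libraries (KRT8 and KRT18 had none), against 3 of 16 blood markers and 0 of 11 fibroblast and endothelial markers.

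hnRNPA1 is an abundant nuclear protein that binds UAG-containing RNA and usually favours exon skipping. SRSF1, an SR protein, binds purine-rich exonic sequence and usually favours exon inclusion, and the balance of the pair sets many splice site choices. Both also touch small non-coding RNAs. C/D box snoRNAs are released from introns of host genes, many of which encode ribosomal or nucleolar proteins, and guide 2'-O-methylation of ribosomal RNA. Their C and D boxes sit near the ends of the molecule and bind the core snoRNP proteins. U2 snRNA pairs with the branch site of introns, and U7 snRNA takes part in histone pre-mRNA processing.

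Small RNAs at which the responses stood far apart are shown first, as the sites described below one by one include them. Each is the GENCODE v29 transcript in DNA letters, 5′ to 3′. For the 5 snoRNAs, capitals mark the first TGATG (the core of the C box) and the last CTGA (the D box). At the first 2 the SRSF1 response lay above the hnRNPA1 response, and at the next 3 below it.
SNORD82: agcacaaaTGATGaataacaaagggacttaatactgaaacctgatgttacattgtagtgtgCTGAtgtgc
SNORD2: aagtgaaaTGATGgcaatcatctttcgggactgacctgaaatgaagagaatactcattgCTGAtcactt
SNORD24: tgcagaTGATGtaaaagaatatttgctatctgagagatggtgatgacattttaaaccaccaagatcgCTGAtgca
SNORD37: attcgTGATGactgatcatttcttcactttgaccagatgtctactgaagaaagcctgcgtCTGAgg
SNORD45C: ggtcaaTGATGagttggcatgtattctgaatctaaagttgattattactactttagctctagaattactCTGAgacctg

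The 2 small nuclear RNAs with the clearest opposite responses follow. Capitals mark the Sm protein binding site of U7 snRNA in RNU7-1 and the branch site pairing stretch of U2 snRNA in RNU2-2P, a gene copy of U2.
RNU7-1: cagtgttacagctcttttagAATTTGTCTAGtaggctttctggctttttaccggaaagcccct
RNU2-2P: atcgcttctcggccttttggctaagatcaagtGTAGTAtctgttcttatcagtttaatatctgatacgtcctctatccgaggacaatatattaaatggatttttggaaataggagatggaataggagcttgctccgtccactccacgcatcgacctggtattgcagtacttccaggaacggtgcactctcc

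The box motifs were shared by both groups of snoRNAs. TGATG with a later CTGA on the RNA strand was present in 260 of 288 C/D box (SNORD) transcripts of the annotation (90.3%), and in all 12 of the SNORDs with the higher and all 9 with the lower SRSF1 response that had an entry. The median length was 70.5 bases (64 to 99) in the former and 85 (66 to 148) in the latter, and the lengths overlapped. The share of G and C overlapped as well, with a median of 40.4% against 47.1%.

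Depth differed between the groups and bears on every value below. Reads in peaks numbered 2973275 and 2508821 in the hnRNPA1 control libraries and 549365 and 575471 with overexpression, while SRSF1 libraries held 125082 to 173766 in control and 175293 to 329448 with overexpression. No peak of these libraries held fewer than 6 reads. After scaling, 6 reads are worth 2.19 and 2.64 normalised reads in the hnRNPA1 control libraries but 15.4 and 14.1 in the overexpression libraries, so a peak must hold more normalised reads to be listed there. In SRSF1 the same 6 reads are worth 5.57, 9.91 and 6.43 in control and 6.83, 3.78 and 4.52 with overexpression. The part of depth in the calls was not tested by thinning, which needs reads. The replicates also differed in spread: the median residual SD was 0.247 (log2) for hnRNPA1 and 0.527 for SRSF1. The fit gives each gene or site 1 spread shared by both proteins. A standard error or p-value of 1 protein below therefore also holds the scatter of the other.

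The number of peaks moved in opposite directions in the 2 proteins. hnRNPA1 had 128366 ± 7118 peaks per library (SD, n = 2) in control and 43752 ± 824 with overexpression, a log2 ratio of -1.55, while SRSF1 had 10202 ± 2227 (n = 3) and 13540 ± 4063, a log2 ratio of 0.41. The difference of 1.96 had an exact two-sided permutation p of 0.05 over 120 arrangements, the smallest possible being 0.0167, and did not pass the threshold. With the minimum of reads per peak raised in proportion to depth the direction turned: the log2 ratios were 0.65 and -0.65 and the difference -1.29 (exact permutation p = 0.0167). That minimum acts in steps of whole reads, so small differences of depth remove many peaks. hnRNPA1 overexpression replicate 2, at 1.05 times the depth of replicate 1, kept 33285 of 44335 peaks, while replicate 1 kept all 43169. The size of the turned difference is therefore uncertain. Median peak length also went apart, from 53 ± 1.41 nt to 43 nt in both hnRNPA1 libraries and from 48.7 ± 2.08 to 60.7 ± 0.577 nt in SRSF1.

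Across genes, the responses differed in 159 of 1459. The SRSF1 response was above the hnRNPA1 response in 97 (6.65% of the genes tested) and below it in 62 (4.25%). The 97 were made up mainly of genes where hnRNPA1 fell: hnRNPA1 was called lower in 64 of them and SRSF1 higher in 22. The 62 were made up mainly of genes where SRSF1 fell: SRSF1 was called lower in 33 and hnRNPA1 higher in 18. In 14 genes of each set neither response passed its own test. By themselves, hnRNPA1 rose in 50 genes (3.43%) and fell in 106 (7.27%), and SRSF1 rose in 103 (7.06%) and fell in 93 (6.37%). Both rose in 14 genes, both fell in 0, and in 6 they passed in opposite directions. In bulk libraries, fewer cells with a transcript and less of it per cell cannot be told apart.

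**Figure D1:**
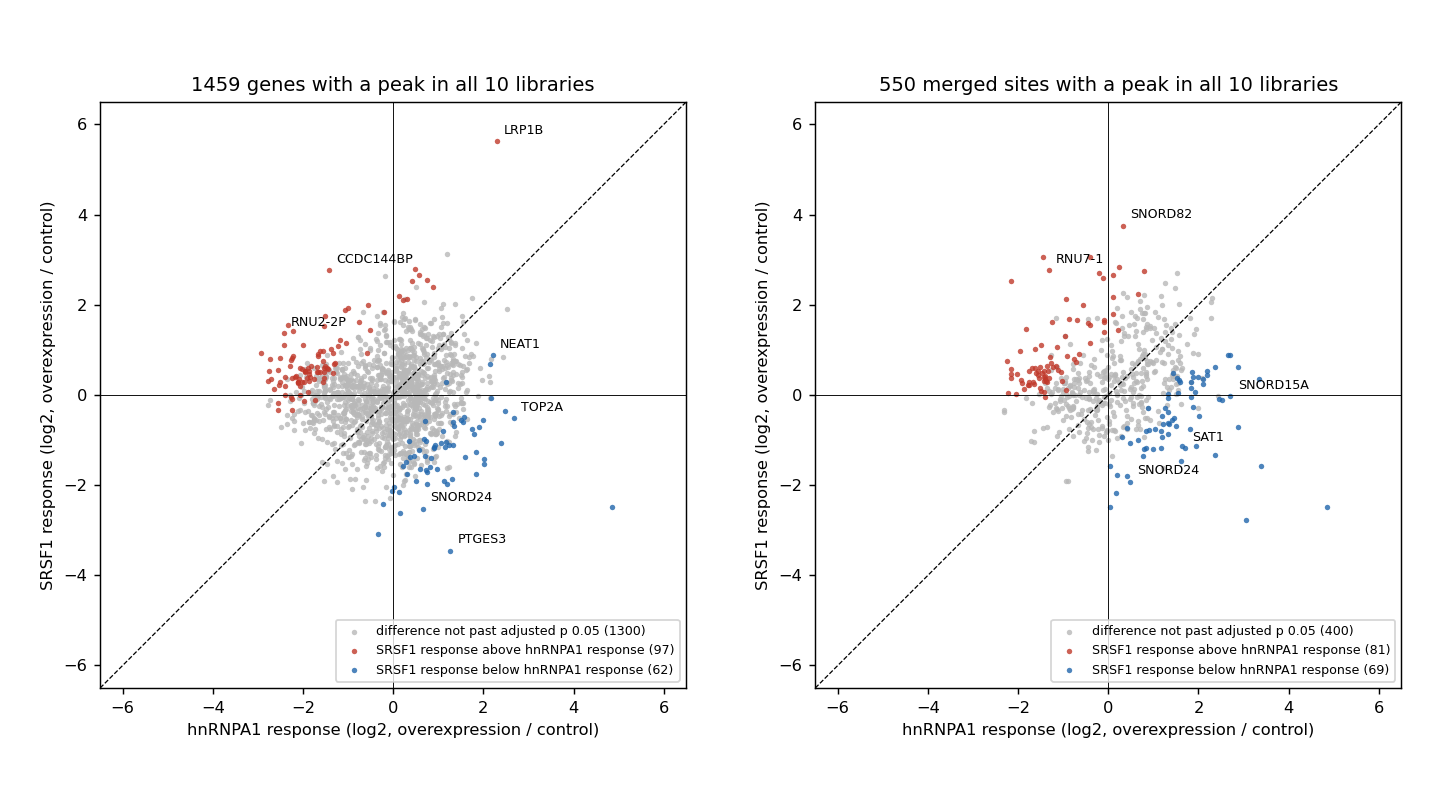
Each point is a gene (left, 1459) or a merged site (right, 550) with a peak in all 10 libraries. The x axis is the hnRNPA1 response and the y axis the SRSF1 response, both as log2 of normalised reads with T7-hnRNPA1 over control. The dashed line marks equal responses. Red points (97 genes, 81 sites) lie above it and blue points (62 genes, 69 sites) below it past an adjusted p of 0.05. Most red points sit left of 0 on the hnRNPA1 axis, and LRP1B is alone at the top right.

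The split by direction depended on the scale. With quantile normalization 21 genes were higher and 31 lower, hnRNPA1 rose in 16 and fell in 8, and SRSF1 rose in 81 and fell in 81. With total reads 93 were higher and 42 lower, hnRNPA1 rose in 29 and fell in 217, and SRSF1 rose in 70 and fell in 148. Total reads moved the median of all genes to -0.31 for hnRNPA1, -0.21 for SRSF1 and 0.17 for the difference, and changes under that scale are relative to those shifts.

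The gene count rests on single hnRNPA1 libraries. Without hnRNPA1 control replicate 1 or replicate 2, or without overexpression replicate 1, 2 genes passed in each case (294, 275 and 327 at an unadjusted p under 0.05). RNU2-2P was in all 3 pairs, with ENSG00000221349 when a control library was left out and SNORD24 otherwise. Leaving out hnRNPA1 overexpression replicate 2 gave 88 genes, SRSF1 control replicate 1 86, and SRSF1 overexpression replicates 1, 2 and 3 gave 81, 90 and 62. Genes with weak peaks made up much of the set with the higher SRSF1 response: their median was 15 raw reads per hnRNPA1 overexpression library, against 58 over all genes and 145 for the set with the lower response. Among the 428 genes with a mean of at least 50 normalised reads in each protein, 39 differed, 16 higher and 23 lower. When peaks were kept only above a minimum that grew with depth, 654 genes remained and 126 differed, 78 higher and 48 lower.

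**Figure D2:**
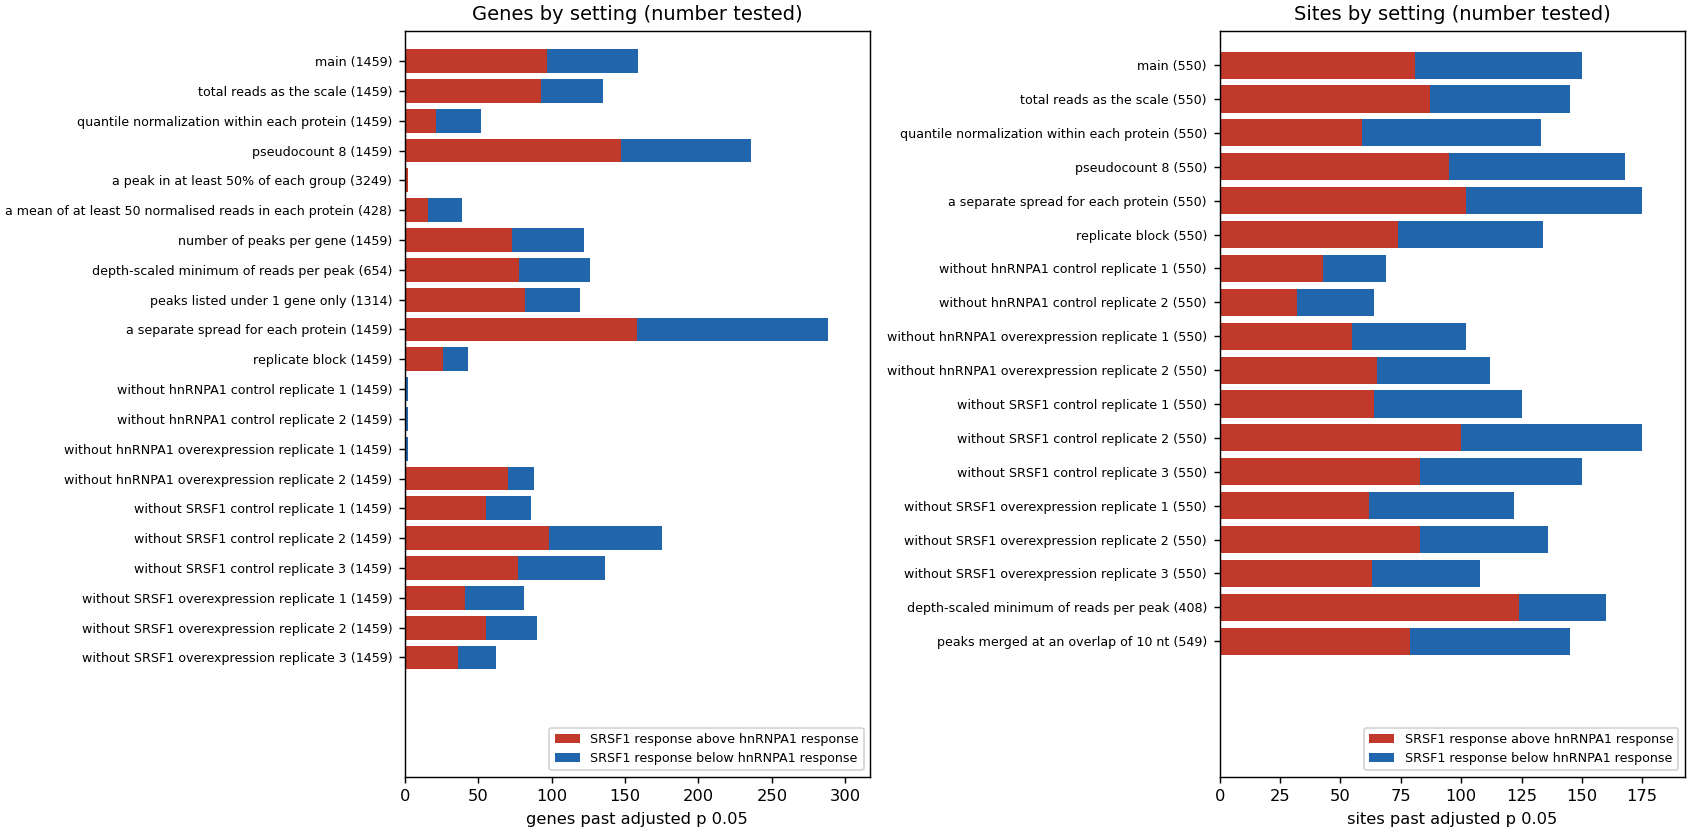
Bars give the number of genes (left) and sites (right) whose responses differed past an adjusted p of 0.05 under each processing setting, with the number tested in brackets. Red is the SRSF1 response above the hnRNPA1 response and blue below it. The gene count fell from 159 to 2 without either hnRNPA1 control library, while the lowest site count was 64.

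A site is the same merged interval in every library, and its reads are summed over the interval. Peaks of different libraries within it need not overlap each other. Responses differed at 150 of 550 sites, with SRSF1 above hnRNPA1 at 81 (14.7%) and below at 69 (12.5%). hnRNPA1 rose at 95 sites (17.3%) and fell at 81 (14.7%), and SRSF1 rose at 93 (16.9%) and fell at 32 (5.82%). Of the 81, hnRNPA1 was called lower at 53 and SRSF1 higher at 30. Of the 69, hnRNPA1 was called higher at 51 and SRSF1 lower at 18. At 13 sites the proteins passed in opposite directions. Leaving out hnRNPA1 control replicate 1 or 2 lowered the count to 69 and 64, and the other single libraries left 102 to 175. With total reads 87 sites were higher and 58 lower, with quantile normalization 59 and 74, and with the minimum of reads raised in proportion to depth 124 and 36 of 408. hnRNPA1 rose at 58 and fell at 114 sites with total reads, while SRSF1 rose at 69 and fell at 56 there and at 55 and 55 with quantile normalization.

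Many of the sites lay at small RNAs. The list of snoRNAs and scaRNAs named 60 of the 550 sites, 57 of them SNORDs. SRSF1 rose at 34 of the 60 and fell at 3, with a median response of 1.47 against 0.27 over all sites. hnRNPA1 rose at 15 and fell at 1, with a median of 0.55 against 0.14. The responses differed at 22 of the 60 (36.7%, against 27.3% of all sites), 13 with SRSF1 above and 9 with SRSF1 below. SRSF1 was called higher at all 13 of the former. Of the 9 latter, hnRNPA1 was called higher at 7 and SRSF1 lower at 2. Both proteins rose at 5 sites, among them those of SNORA75, SNORD12B and SNORD97.

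These counts moved with the scale. With quantile normalization SRSF1 rose at 23 of the 60 and fell at 9, hnRNPA1 rose at 7, and the differing sites split into 10 and 10. With total reads SRSF1 rose at 29 and fell at 3, and hnRNPA1 rose at 9 and fell at 2. Total reads also moved the median of all sites from 0.14 to -0.19 for hnRNPA1 and from 0.27 to 0.06 for SRSF1. With single libraries left out, SRSF1 rose at 27 to 36 of the sites, and the hnRNPA1 count fell to 4 without control replicate 1, to 8 without control replicate 2 and to 6 without overexpression replicate 2. The sites with SRSF1 above numbered 6 without hnRNPA1 control replicate 2, and those with SRSF1 below numbered 4 without control replicate 1.

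**Figure D3:**
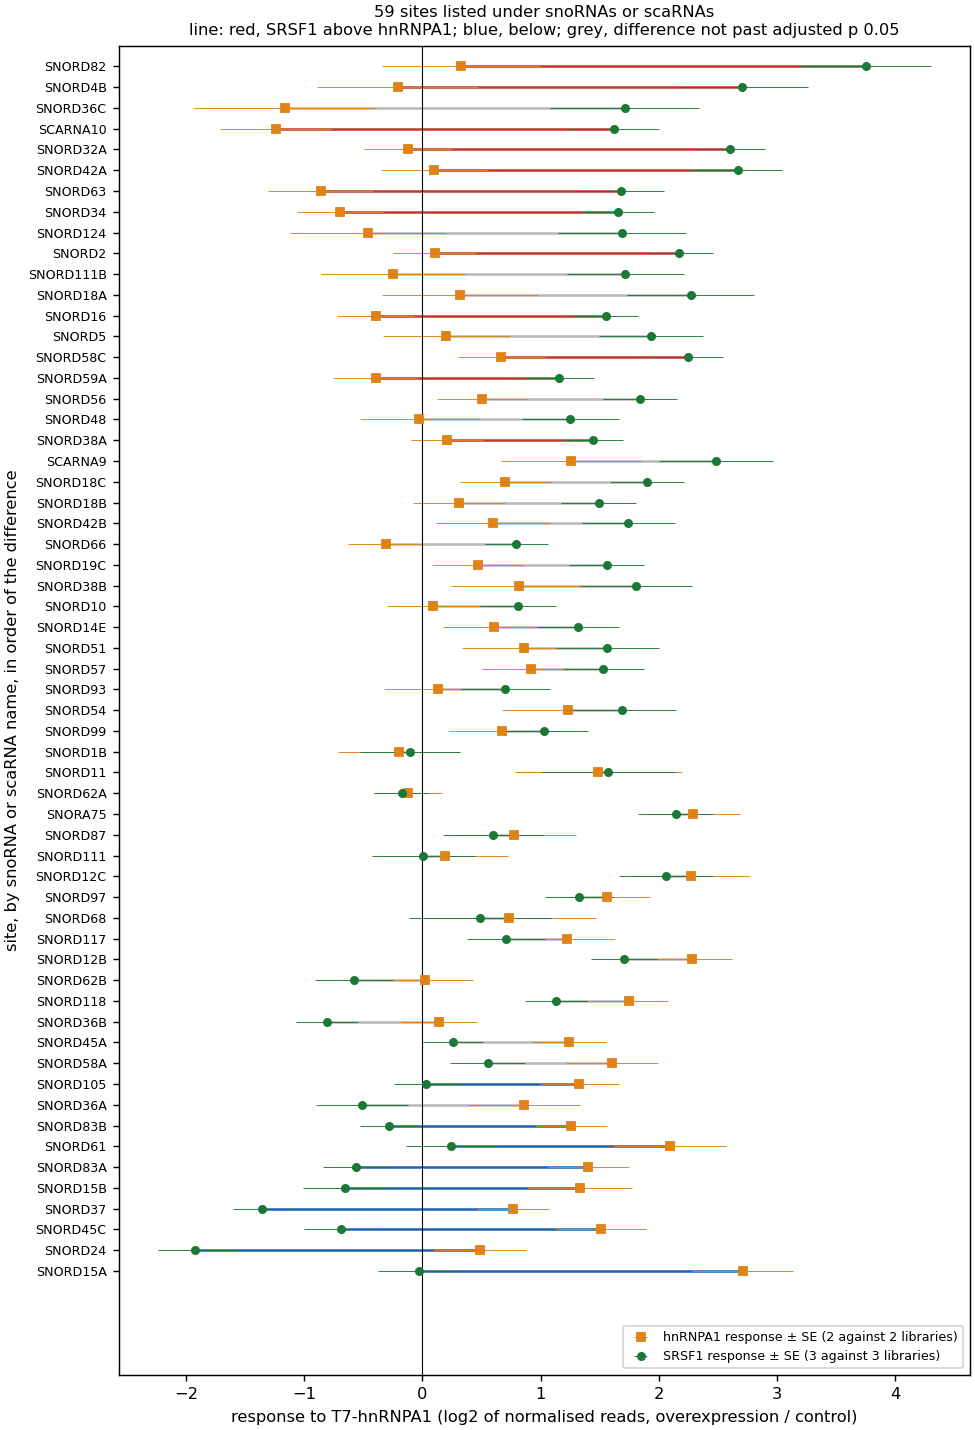
Each row is 1 of 59 of the 60 sites listed under a snoRNA or scaRNA, in order of the difference. Orange squares are the hnRNPA1 response and green circles the SRSF1 response (log2, overexpression over control), with standard errors. Lines joining each pair are grey where the difference did not pass. Red lines join the 12 plotted sites with SRSF1 above, blue lines the 9 with SRSF1 below. The SRSF1 circles run from -1.92 at SNORD24 to 3.75 at SNORD82.

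As a share of all reads in peaks, those listed under snoRNA and scaRNA genes made up 2.49%, 1.93% and 3.12% of the SRSF1 control libraries and 4.67%, 3.90% and 4.38% with overexpression, and the groups did not overlap. The hnRNPA1 shares were 0.213% and 0.213% in control and 0.217% and 0.349% with overexpression, the second library alone being higher. The log2 ratios, 0.78 for SRSF1 and 0.41 for hnRNPA1, differed by 0.37, which the exact two-sided permutation test did not call (p = 0.6). In U2AF2 iCLIP of the same cells the shares went the other way, from 0.557% to 0.785% in control to 0.0503% to 0.0666% with overexpression, and the log2 U2AF2 change was below 0 at all 60 sites, against 359 of all 550. In U2AF2 overexpression replicate 3 the smallest peaks had 3 reads rather than 6, and its share of 0.0540% lay between those of the other replicates.

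Among single snoRNAs, SNORD82 lies within NCL, the gene of the nucleolar protein nucleolin (chr2:232325074-232325151, hg19, minus strand). Its hnRNPA1 values stayed close, at 93.2 and 84.4 in control and 113 and 111 with overexpression. SRSF1 rose from 7.43, 13.2 and 54.7 to 254, 223 and 286 normalised reads, the highest SRSF1 gain of the 60 sites at 3.75 ± 0.55, and the difference was 3.42 ± 0.87 (adjusted p = 0.0166). The control libraries were far apart, so the size of the gain is uncertain.

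RPL13A, a ribosomal protein gene, hosts a cluster of C/D snoRNAs, and the sites of SNORD32A and SNORD34 behaved alike. At SNORD32A (chr19:49993224-49993306) SRSF1 went from 64.1, 95.8 and 93.3 to 531, 485 and 508 reads, while hnRNPA1 had 55.6 and 54.5 in control and 35.9 and 70.6 with overexpression. The difference was 2.72 ± 0.48 (adjusted p = 0.00545), and at SNORD34 it was 2.36 ± 0.47 (adjusted p = 0.00749). SNORD2, in an intron of the translation initiation helicase EIF4A2 (chr3:186502584-186502653), had 107, 167 and 195 SRSF1 reads in control and 785, 619 and 664 with overexpression. Its hnRNPA1 values of 142 and 148 in control fell between the 126 and 193 seen with overexpression, and the difference was 2.07 ± 0.45 (adjusted p = 0.00989). These 3 sites passed under all 15 of the site-level alternatives that keep the same sites. The depth-scaled minimum of reads and the merge at an overlap of 10 nt redraw the sites and are not counted there. Counted as a gene, SNORD2 passed in 9 of 20 alternatives.

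The opposite pattern was found at snoRNAs of other host genes. SNORD24 (chr9:136216261-136216326), from the ribosomal protein gene RPL7A, had 741, 621 and 1056 SRSF1 reads in control and 215, 203 and 203 with overexpression, so that every control library was higher. hnRNPA1 had 141 and 156 in control and 138 and 313 with overexpression, which overlapped. The difference was -2.41 ± 0.50 (adjusted p = 0.00876). SNORD37, from the elongation factor gene EEF2 (chr19:3982503-3982575), had 785, 736 and 678 SRSF1 reads in control and 344, 219 and 310 with overexpression. Its hnRNPA1 values of 72.4 and 93.6 became 136 and 146, a change of 0.77 ± 0.30 that did not pass (adjusted p = 0.0721), and the difference was -2.12 ± 0.39 (adjusted p = 0.00623).

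At a further set hnRNPA1 rose while SRSF1 changed little or not past its test. SNORD15A of RPS3 (chr11:75111497-75111590) had 12.4 and 9.67 hnRNPA1 reads in control and 53.8 and 111 with overexpression. Its SRSF1 values were 93.8, 69.4 and 102 in control and 112, 65.5 and 85.2 with overexpression, fully overlapping. The difference was -2.74 ± 0.55 (adjusted p = 0.00749), and at SNORD15B of the same gene it was -1.99 ± 0.57 (adjusted p = 0.0273). RPL3 repeated this at both of its snoRNAs, with -1.96 ± 0.44 at SNORD83A (adjusted p = 0.0103) and -1.54 ± 0.39 at SNORD83B (adjusted p = 0.0166). SNORD45C, listed under RABGGTB and ACADM, had 159 and 192 hnRNPA1 reads in control against 518 and 482 with overexpression, and 376, 263 and 461 SRSF1 reads against 305, 240 and 148. Its difference was -2.20 ± 0.49 (adjusted p = 0.0104).

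Sites of 1 host gene shared a direction in some genes and not in others. In RPL4 the SRSF1 response passed as higher at all 4 sites and the differences ran from 1.18 to 1.95, 1 of them past the test. In RPL23A SRSF1 rose at all 3 sites, with differences of 1.14 to 2.92, 2 past the test. In RPL7A the 4 sites ran from -2.41 at SNORD24 to 2.87 at SNORD36C, the latter with an adjusted p of 0.0526. GAS5, a non-coding snoRNA host, had 6 sites, and SRSF1 rose at 5 of them. Sites of 1 host share its transcript and are not independent.

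**Figure D4:**
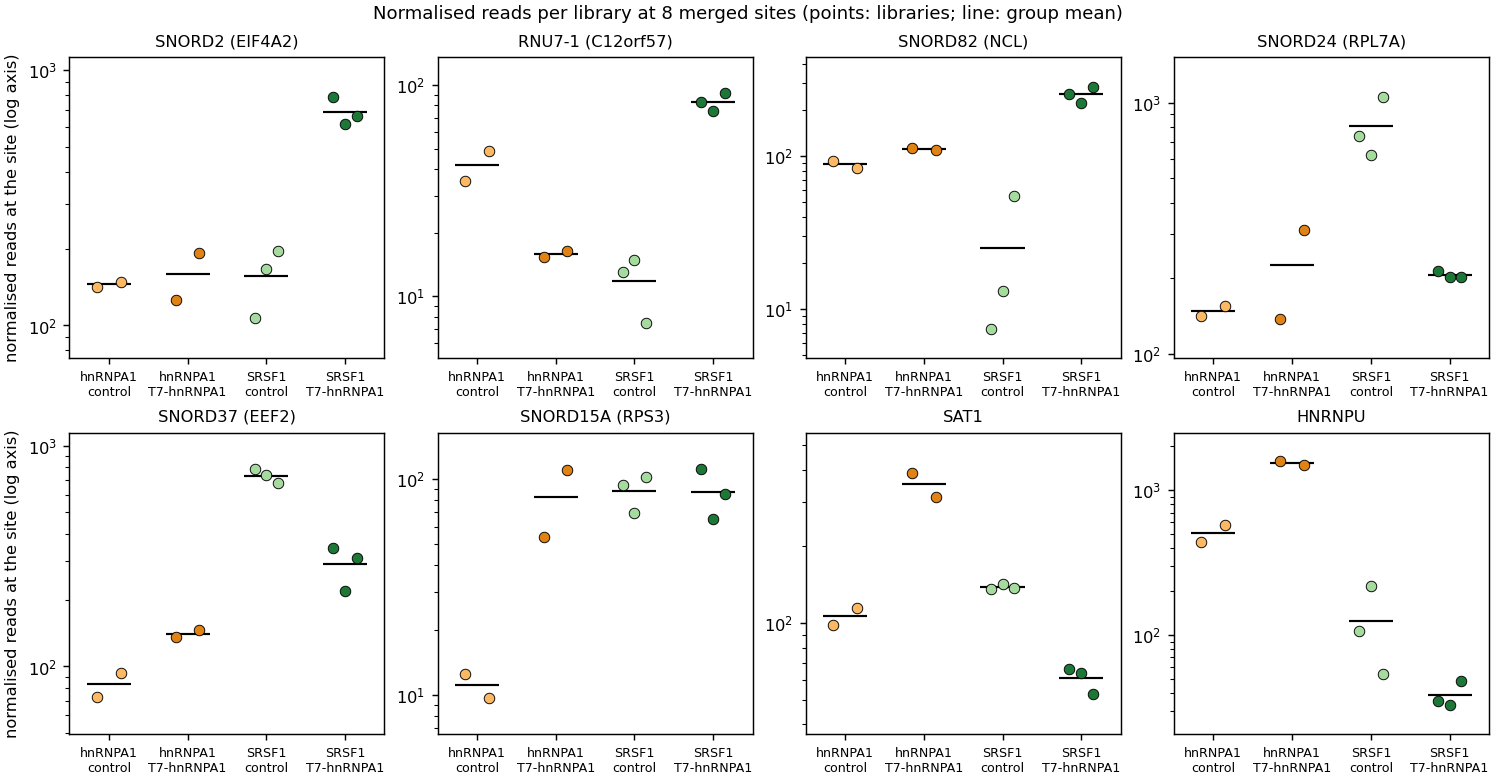
Each panel is 1 merged site, with normalised reads per library on a log axis for hnRNPA1 (orange) and SRSF1 (green), control in light and T7-hnRNPA1 in dark shades. Points are libraries and lines are group means. At RNU7-1 hnRNPA1 falls and SRSF1 rises, at SNORD2 only the SRSF1 groups are apart, at SAT1 and HNRNPU the reverse is seen, and at SNORD15A only the hnRNPA1 groups are apart.

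Small nuclear RNAs followed. The names of snRNAs and 7SK marked 8 sites, a class formed after the values were seen. Responses differed at 5 of these 8, against 27.3% of all sites. SRSF1 was above at 4 and below at 1 (14.7% and 12.5% over all sites). RNU7-1, the U7 gene, is listed with C12orf57 (chr12:7052980-7053049). It had 35.1 and 48.8 hnRNPA1 reads in control and 15.4 and 16.5 with overexpression, the latter close to the 6 reads a peak needs there. SRSF1 went from 13, 14.9 and 7.51 to 83.1, 74.9 and 91.9. The difference was 4.09 ± 0.47 (adjusted p = 0.000838).

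The site of RNU2-2P and WDR74 (chr11:62609085-62609280, minus strand) was higher in reads. It had 530 and 537 hnRNPA1 reads in control and 141 and 160 with overexpression, and 106, 144 and 108 SRSF1 reads in control and 347, 350 and 293 with overexpression. hnRNPA1 fell by 1.82 ± 0.28 and SRSF1 rose by 1.47 ± 0.23, a difference of 3.29 ± 0.37 (adjusted p = 0.000838). The reads of this one interval are listed under both genes, so the gene-level differences of RNU2-2P (3.79 ± 0.47, adjusted p = 0.00343) and WDR74 (3.05 ± 0.45, adjusted p = 0.00722) are not separate findings. U2 has near-identical gene copies, and which copy the reads came from is uncertain. RNU6-4P, a U6 copy within SOX2-OT, carries the same doubt. Its difference was 4.69 ± 0.94 (adjusted p = 0.00749), with 26.9, 89.2 and 15.0 SRSF1 reads in control and 377, 163 and 125 with overexpression.

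Another site with a higher SRSF1 response, in GNL3 and ENSG00000252787 (chr3:52722915-52722972), had 13, 34.7 and 11.8 SRSF1 reads in control and 160, 138 and 161 with overexpression. Its hnRNPA1 groups overlapped, and the difference was 3.45 ± 0.76 (adjusted p = 0.00989).

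The largest negative site differences lay in short or repeated intervals and are reported with that reserve. ENSG00000221349 is a 19-nt site (chr19:58024411-58024429, minus strand) with 5.49 and 5.71 hnRNPA1 reads in control and 197 and 181 with overexpression. SRSF1 had 88.2, 372 and 39.7 in control and 35.3, 18.9 and 9.80 with overexpression, control replicate 2 being far above the others, and the difference was -7.33 ± 1.09 (adjusted p = 0.00184). ENSG00000256618, 33 nt long (chr17:22022877-22022909), showed the same order, from 43.9 and 40.4 to 377 and 339 in hnRNPA1 and from 129, 339 and 66.5 to 27.3, 17.0 and 17.3 in SRSF1. Its difference was -5.83 ± 0.78 (adjusted p = 0.00105). ENSG00000255823, also 33 nt long (chr11:10530601-10530633), had a difference of -3.60 ± 0.91 (adjusted p = 0.0166), and again SRSF1 control replicate 2 stood above the rest at 183 reads against 39.0 and 24.7. At ANKRD30BL (chr2:133015187-133015269) hnRNPA1 rose from 2.93 and 4.39 to 35.9 and 61.2 reads, SRSF1 had 210, 57.8 and 370 in control and 62.6, 48.5 and 55.0 with overexpression, and the difference was -4.95 ± 0.88 (adjusted p = 0.00565). Without SRSF1 control replicate 2 the 4 sites passed in the same direction, at -6.47, -5.23, -2.77 and -5.72.

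Sites in messenger RNA genes were also found on either side. In SAT1, which acetylates spermidine and spermine (chrX:23802057-23802368), hnRNPA1 went from 98.7 and 115 to 390 and 313 reads and SRSF1 from 136, 142 and 137 to 66.0, 63.6 and 52.8. Neither pair of groups overlapped, and the difference was -2.89 ± 0.38 (adjusted p = 0.00105). At HNRNPU, which encodes a nuclear matrix hnRNP and is listed there with ENSG00000188206 (chr1:245015411-245015697), hnRNPA1 rose from 437 and 577 to 1579 and 1480 reads and SRSF1 fell from 106, 218 and 53.6 to 35.3, 32.7 and 48.2, a difference of -3.07 ± 0.68 (adjusted p = 0.0101). The other direction was seen at DCAF11 (2.64 ± 0.50, adjusted p = 0.00707) and RPS6KA3 (2.60 ± 0.58, adjusted p = 0.0102), where hnRNPA1 fell and SRSF1 rose.

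MALAT1, a nuclear non-coding RNA of speckles, held 23 sites. The responses differed at 6, a share near the 27.3% of all sites. SRSF1 was below at 4 and above at 2 (12.5% and 14.7% over all sites), so the sign was not shared along the transcript. At chr11:65267672-65267739 hnRNPA1 had 72.8 and 248 reads in control and 936 and 584 with overexpression, SRSF1 lay between 88.9 and 126 in all 6 libraries, and the difference was -2.54 ± 0.64 (adjusted p = 0.0166). At chr11:65269499-65269547 hnRNPA1 fell from 597 and 566 to 287 and 275, SRSF1 had 227, 246 and 247 in control and 335, 343 and 342 with overexpression, and the difference was 1.55 ± 0.31 (adjusted p = 0.00749). Summed over the gene, both proteins rose: hnRNPA1 from 9431 and 10577 to 26868 and 23322 (1.33 ± 0.15) and SRSF1 from 4291, 4394 and 4171 to 7937, 6928 and 6781 (0.75 ± 0.12). The difference of -0.58 ± 0.19 did not pass (adjusted p = 0.0685). With quantile normalization, which forces the most abundant genes of a protein's libraries to like values, its sign turned and it passed at 0.42 (adjusted p = 3.03e-05). NEAT1, the RNA of paraspeckles, went from 2628 and 2655 to 11865 and 12581 in hnRNPA1 and from 902, 545 and 840 to 1510, 1275 and 1372 in SRSF1. Both rose, hnRNPA1 by 2.21 ± 0.24 and SRSF1 by 0.89 ± 0.20, and the difference of -1.32 ± 0.31 passed (adjusted p = 0.0276). It passed in 8 of 20 alternatives and stayed below 0 in each of them, with -0.76 after quantile normalization.

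At the gene level the largest positive difference was in CCDC144BP (chr17, minus strand), a pseudogene with related copies, so its reads are uncertain in origin. It had 336 and 294 hnRNPA1 reads in control against 126 and 108 with overexpression, and 5.57, 9.91 and 21.4 SRSF1 reads against 66.0, 94.4 and 78.4. The difference was 4.19 ± 0.68 (adjusted p = 0.0108). IL17RD, a transmembrane regulator of growth factor signalling, passed in opposite directions, with hnRNPA1 at -2.32 ± 0.57 and SRSF1 at 1.56 ± 0.46 (difference 3.88 ± 0.73, adjusted p = 0.0141). Its hnRNPA1 overexpression values, 15.4 and 32.9, came from a single peak of 6 and 14 raw reads. POC1B, a centriole protein gene, had 126 and 129 hnRNPA1 reads in control and 15.4 and 16.5 with overexpression, a single peak of 6 and 7 raw reads. Its difference was 3.86 ± 0.62 (adjusted p = 0.0108), while SRSF1 itself did not pass (0.93 ± 0.40). SYNE2, MAP3K20-AS1, IRAK4, C21orf62 and QTRT2 had the same form, with hnRNPA1 called lower and SRSF1 not called, and their differences ran from 3.28 to 3.65. In that order they had 14 and 7, 7 and 15, 6 and 20, 7 and 20, and 24 and 6 raw hnRNPA1 reads with overexpression. A peak needs 6, so each had a library near the floor. QTRT2 passed in 6 of 18 alternatives.

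LRP1B, a very long gene of a lipoprotein receptor relative, was of another kind, since both proteins rose. hnRNPA1 went from 5837 and 4975 reads to 30080 and 23439 and SRSF1 from 17.6, 9.91 and 7.51 to 341, 955 and 650. The SRSF1 control values came from 19, 6 and 7 raw reads, where a peak needs 6, so the size of the gain is uncertain. The SRSF1 response of 5.64 ± 0.37 exceeded the hnRNPA1 response of 2.30 ± 0.45 by 3.34 ± 0.58 (adjusted p = 0.0132). The number of SRSF1 peaks rose from a mean of 1.67 per control library to 95.7 with overexpression, and the hnRNPA1 peaks from 584 to 674. LRP1B reads made up 0.456% to 0.543% of the hnRNPA1 reads in control and 1.76% to 2.17% with overexpression.

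Among the largest negative gene differences, PTGES3, the HSP90 co-chaperone p23, had 159, 388 and 139 SRSF1 reads in control and 34.1, 3.78 and 38.4 with overexpression. The value of 3.78 is the minimum of 6 raw reads. The hnRNPA1 values of PTGES3, 441 and 385 in control and 1087 and 901 with overexpression, did not overlap. They gave 1.26 ± 0.81, which did not pass under the spread shared with SRSF1. The difference was -4.72 ± 1.05 (adjusted p = 0.0245). TOP2A, the topoisomerase of dividing cells, differed mainly through hnRNPA1, with 19 and 24.2 reads in control and 126 and 162 with overexpression. Its SRSF1 groups overlapped, and the difference was -3.19 ± 0.69 (adjusted p = 0.0233). HOXA6, a homeobox gene, had 56.3 and 57.6 hnRNPA1 reads in control and 228 and 235 with overexpression, and SRSF1 fell from 64.1, 102 and 71.8 to 47.8, 21.4 and 17.3. The difference was -3.54 ± 0.63 (adjusted p = 0.0134). NUP85, a nucleoporin gene, was alike at -3.44 ± 0.68 (adjusted p = 0.0169), with 6, 21 and 20 raw SRSF1 reads with overexpression. CS, which encodes citrate synthase, stood at -3.57 ± 0.79 (adjusted p = 0.0245), TRAF3, a signalling adaptor, at -3.17 ± 0.54 (adjusted p = 0.0132) and NOLC1, a nucleolar phosphoprotein, at -3.17 ± 0.79 (adjusted p = 0.0343). Raw SRSF1 reads with overexpression were 7, 18 and 14 in CS, 7, 19 and 18 in TRAF3 and 8, 8 and 13 in NOLC1. A peak needs 6, so these values lie near the floor. SRSF1 control replicate 2 stood above the others in CS (20.4, 90.8 and 23.6) and NOLC1 (18.6, 72.7 and 21.4).

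In the 7 lists of splicing regulators 8 of 82 genes differed (9.76%), close to the 10.9% of all genes (6.65% higher and 4.25% lower). Of 20 tested hnRNP genes 0 passed in either direction, with a median difference of -0.60 against 0.05 over all genes, and HNRNPA1 itself stood at -0.41 ± 0.64 (adjusted p = 0.705). HNRNPA1 reads were 489 and 510 in control and 587 and 711 with overexpression in hnRNPA1 iCLIP, and 148, 461 and 123 against 171, 225 and 202 in SRSF1 iCLIP, overlapping in the latter. The T7-hnRNPA1 messenger RNA has HNRNPA1 coding sequence, so these reads may come from either source. Of 9 SR protein genes 1 differed, SRSF4 at -1.67 ± 0.45 (adjusted p = 0.0418), and SRSF1 at its own transcript stood at -0.72 ± 0.42 (adjusted p = 0.283). Of 21 genes of SR-related cofactors RBM25 (1.96 ± 0.52) and ACIN1 (2.28 ± 0.63) were higher and SRRM1 (-1.81 ± 0.54, adjusted p = 0.05 after rounding) lower. With quantile normalization 0 of these 21 and 0 of the 9 SR genes passed.

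The kinases that phosphorylate SR proteins were measured in 4 cases, and 1 passed in each direction. SRPK1 had 110, 221 and 114 SRSF1 reads in control and 14.8, 27.7 and 25.6 with overexpression, while hnRNPA1 had 535 and 545 against 800 and 456, and the difference was -2.79 ± 0.59 (adjusted p = 0.021). PRPF4B rose in SRSF1 from 21.4, 11.6 and 6.43 to 75.1, 76.2 and 87.4, with a difference of 2.09 ± 0.61 (adjusted p = 0.0493). It passed in 5 of 18 alternatives, and with quantile normalization only SRPK1 of the 4 passed. SRPK2 (-1.61 ± 0.62) and CLK2 (-1.73 ± 0.92) did not pass. SRSF1 fell in the genes of the 3' splice site factors U2AF1 (-2.35 ± 0.35) and SF1 (-2.08 ± 0.36). The differences there, -1.73 ± 0.56 and -1.17 ± 0.57, did not pass, and 0 of 9 genes of that list did. Among 8 other spliceosome genes SYF2 was higher at 2.60 ± 0.70 (adjusted p = 0.0421), and among 11 DEAD and DEAH helicases DDX19A was higher at 2.43 ± 0.56 (adjusted p = 0.0252). In both genes hnRNPA1 was called lower, while SRSF1 did not pass (0.20 ± 0.44 and 0.35 ± 0.35). Their hnRNPA1 overexpression values came from a single peak, of 7 and 7 raw reads in SYF2 and 9 and 6 in DDX19A. SYF2 passed in 7 of 19 alternatives and DDX19A in 12 of 18.

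Ribosomal protein genes gave 4 higher and 0 lower differences of 36 tested, a share near the 10.9% of all genes, with a median of -0.24. With quantile normalization 1 was higher and 1 lower. Those of RPL13A (1.87 ± 0.47), RPSA (1.83 ± 0.48) and RPS12 (2.06 ± 0.54) came with higher SRSF1 signal. The mean number of SRSF1 peaks in these 3 went from 5 to 5.33, from 3 to 2.33 and from 3.67 to 4. The differences in log2 peak number, -1.36, -0.56 and -0.14, were taken after scaling. They hold that scaling as well as the peaks: in RPL13A hnRNPA1 peaks went only from 4.5 to 5. RPL13A carries the SNORD32A and SNORD34 sites described above, so its difference is not a separate finding. In RPL27A hnRNPA1 fell, with 90.0 and 82.2 reads in control and 15.4 and 18.8 with overexpression (difference 3.05 ± 0.57, adjusted p = 0.0138). The latter values came from a single peak of 6 and 8 raw reads, where a peak needs 6, and SRSF1 itself did not pass (0.78 ± 0.36). Of the 12 non-coding and coding genes in the snoRNA host list 0 differed, although SRSF1 rose in 5 and hnRNPA1 in 2. Of 17 snoRNA and scaRNA genes counted as genes, 1 was higher, SNORD2, and 5 lower, led by SNORD24 (-3.17 ± 0.58, adjusted p = 0.0134). With total reads 1 was higher and 2 lower, and with quantile normalization 0 and 6. The depth-scaled minimum left 15 of these genes, 3 higher and 2 lower. Their median difference was 0.20 there, against -0.41 for the 17.

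The counts of the following lists are small and stand against 6.65% higher and 4.25% lower over all genes. Of 12 cell cycle genes 3 had the lower SRSF1 response and 0 the higher: TOP2A, CDK1 (-2.29 ± 0.56) and MCM7 (-2.50 ± 0.66). With quantile normalization 1 was lower. The list's median hnRNPA1 response was 1.16, its SRSF1 response -0.54 and its difference -1.08. MCM7 had 5.12 and 2.64 hnRNPA1 reads in control and 15.4 and 14.1 with overexpression, the latter being the minimum of 6 raw reads in each library. Its raw hnRNPA1 reads were 14 and 6 in control. Of 13 chaperone genes 2 were lower, PTGES3 and CCT2 (-2.42 ± 0.70, adjusted p = 0.0487). In 17 translation factor genes EEF2 was lower at -2.07 ± 0.57 (adjusted p = 0.0429), and it carries the SNORD37 site. Of 18 chromatin regulators SMARCC1 was lower at -2.62 ± 0.54 (adjusted p = 0.0192), with 7, 14 and 13 raw SRSF1 reads with overexpression. Of 32 zinc finger genes 3 were higher and 3 lower (3 and 0 with total reads, 0 and 0 with quantile normalization), and hnRNPA1 fell in 5 and SRSF1 in 5. NMD factors gave SMG9 as lower in 4 tested (-1.91 ± 0.57, adjusted p = 0.0493), with 8, 9 and 6 raw SRSF1 reads with overexpression. The lists of double-stranded RNA and editing factors (5 tested) and of cleavage and polyadenylation factors (8 tested) gave 0.

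The U2AF2 libraries of the same cells were not used to choose the genes and give a further value for each. The median U2AF2 log2 change was 0.86 over the 97 genes with the higher SRSF1 response, -1.33 over the 62 with the lower and -0.42 over all 1459. U2AF2 depth ran opposite to that of hnRNPA1, with 702563 to 1158060 reads in peaks in control and 2317615 to 3657197 with overexpression. The smallest peaks were worth 10.2 to 17.3 normalised reads in control and 0.935 to 3.05 with overexpression, and the part of depth in these medians was not tested. For the 3 proteins at NEAT1 the log2 changes were 2.21 (hnRNPA1), 0.89 (SRSF1) and -3.15 (U2AF2). At RPL27A U2AF2 stood at 0.31 and at TOP2A at -1.31. The control cells are of 1 line in all 3 assays, but no library is shared.

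Exon inclusion from RNA-seq could be read for few of these genes. The authors' deposited table of skipped exons lists 251 events past their own limits. Of these events 27 fell within the peak span of 30 tested genes. The responses differed in 3 of those genes (ACIN1, RASA4B and SRRM1), a share near the 10.9% of all genes. The RASA4B events (chr7:102181948-102185223) also lie within the spans of POLR2J2 and POLR2J3, whose differences did not pass. In ACIN1, an RNA processing factor tied to the exon junction complex (chr14:23535175-23538826), inclusion was a fraction of 0.30 to 0.44 in control and 0.04 to 0.06 with overexpression. In SRRM1, a splicing coactivator (chr1:24973158-24975520), it was 0.15 to 0.38 against 0.03 to 0.09. The exons of both genes were skipped more with overexpression by the authors' deposited table, while their differences of responses had opposite signs, 2.28 in ACIN1 and -1.81 in SRRM1.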

How the data were processed

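Peaks had been mapped and called in each library by the authors: per the file headers, reads were mapped to hg19 with TopHat, repeats were filtered and CLIPper called peaks, with no version given in the sources used here. Each deposited peak name carries a gene ID and its number of reads, which was used, while p-values were not. The deposited MISO table gives inclusion as a fraction and a Bayes factor as a ratio, by the authors. Members, gene lists and tests were chosen with earlier results of these data known.

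Reads in peaks were summed per gene, or per merged site (overlap of at least 1 nt on a strand, an interval listed under several genes counted once), and divided by median-of-ratios size factors within each protein. Log2 of these values plus 1 entered a linear model with 1 mean per group over the 10 libraries (limma 3.58.1 under R 4.3.3, eBayes with a trend), and the 3 contrasts were tested two-sided with Benjamini-Hochberg adjustment over all genes or sites at 0.05. In the fit all groups share 1 estimate of the spread. A run on simulated data used 1 spread per gene for all 10 libraries and no minimum of reads per peak. The data differ from it in both respects, so it does not show how well the fit works here. Normalised reads are not per length and are not compared between genes. Of 1459 IDs 1394 matched the gene name table and 1360 had a symbol, and the others keep their IDs. Genes named are the 10 largest differences in each direction, the lowest p-values of each list, a few fixed genes and those with opposite responses. Sites named beyond the 5 largest in each direction, and the comparison of the snoRNA read share, were chosen after their values were seen. One abundant nuclear RNA and 1 snoRNA site are not reported here, though both count among those tested. SNORD and snRNA sequences are from GENCODE v29 (GRCh38), matched by name, and coordinates are hg19 throughout.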

Additional observations from a re-analysis of the deposited data

Results flagged for a closer look

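Several results stood out because the proteins passed their own tests in opposite directions and the difference passed as well. Among genes these were RNU2-2P (difference 3.79), WDR74 (3.05) and IL17RD (3.88), where hnRNPA1 fell and SRSF1 rose, and ENSG00000221349 (-7.33), HOXA6 (-3.54) and NUP85 (-3.44), where hnRNPA1 rose and SRSF1 fell. Among sites hnRNPA1 fell and SRSF1 rose at RNU2-2P with WDR74 (3.29), RNU7-1 with C12orf57 (4.09), RNU6-4P with SOX2-OT (4.69), DCAF11 (2.64), RPS6KA3 (2.60) and ENSG00000203832 (2.20). hnRNPA1 rose and SRSF1 fell at SAT1 (-2.89), HNRNPU (-3.07), ENSG00000256618 (-5.83), ENSG00000221349 (-7.33) and CD36 (-1.79). CD36 had few reads, 9.87 and 14.5 for hnRNPA1 in control and 28.2 and 23.5 with overexpression. The part of depth in these results was not tested.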

How the results depend on the processing

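The count of genes with differing responses, 159, was 52 with quantile normalization (45 of the 159 in the same direction), 2 of 3249 with a peak in at least 50% of each group, 39 of 428 at a mean of at least 50 normalised reads and 288 with a separate spread for each protein. Single libraries left out gave 2 to 175. For hnRNPA1 alone, the count of 156 became 246 with total reads, 24 with quantile normalization, 316 with a pseudocount of 8, 7 with a peak in 50% of each group, 53 at the mean of 50, 578 with a separate spread and 4 to 278 without single libraries. For SRSF1 alone, the count of 196 became 69, 130 and 121 under the peak share, the mean and the separate spread, 39 by number of peaks, 107 with the depth-scaled minimum and 119 to 220 without single libraries. The 150 sites ranged from 64 to 175 without single libraries. The difference in log2 peaks per library was 4.06 for peaks of at least 20 reads, -1.29 with the depth-scaled minimum and 1.75 to 2.18 without single libraries. By scaled number of peaks the sign turned for RPL13A (-1.36), RPSA (-0.56), RPS12 (-0.14), SNORD2 (-0.79), SRSF1 (0.031) and U2AF2 (0.37). SNORD2 had a mean of 1 peak in every group, so its value comes from the scaling alone. With quantile normalization the sign turned for MALAT1 (0.42), and HNRNPA1 ran from -0.78 to 0.16 without single libraries. Apart from the settings that test fewer or more genes or use fewer libraries, the cause was not tested.

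With the replicate number as a block, 43 genes and 134 sites passed. Same-numbered libraries did not deviate together (correlation within 0.0342 of 0), nor did every SRSF1 library correlate best with its own number, so the numbers were not taken as pairs. Depth limits the hnRNPA1 overexpression values most, where 1 peak at the minimum is worth 14.1 to 15.4 normalised reads.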
